A study of Mus musculus with 8 samples.

Results

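The distal part of the mouse immunoglobulin heavy chain locus is described here, as it was read in pre-B cells with and without the last exon of Dido1. RNA-seq libraries came from pre-B cells sorted by surface markers from the bone marrow of C57BL/6 mice of 6 to 10 weeks, with 2 WT and 2 Dido1∆E16 libraries, each made from a pool of 2 to 3 mice. WT mice were littermates with the genotype Dido1 flE16/+; R26R-EYFP; iCre-Vav1. They carried the same Cre and 1 floxed allele beside an intact one, and the paper calls them heterozygous controls. Their floxed allele can be cut by that Cre as well, so WT here does not mean 2 intact copies of exon 16. Dido1∆E16 mice carried 1 deleted allele and 1 allele whose exon 16, the 3' terminal exon, lies between loxP sites. In them this exon is cut by a Cre recombinase under the Vav1 promoter. That promoter acts across the haematopoietic lineage, so cells other than B cells carry the deletion too, and the labels name the genotypes only as wild type and DIDO3_exon16 mutant. The comparison asks how transcription over these segments differs when no intact copy of exon 16, which codes for the C-terminal part of the Dido3 isoform, is left.

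The segments were found by position. In the deposited transcript files the whole heavy chain locus is 1 composite transcript of 1075 blocks, and 294 of those blocks lie between positions 114460001 and 116011000 of chromosome 12 (mm10), a window of 1.55 Mb on the far side of the V cluster. Blocks within 500 bp of each other were joined and matched to the annotation, which gave 97 Ighv segments of the 153 in the composite. The other 56 lie nearer the D and J segments. Of the 97 members, 87 belong to the Ighv1 family, 8 to Ighv8 and 2 to Ighv10, and 59 are annotated as genes and 38 as pseudogenes. All lie on the minus strand. The window also holds 98 short block clusters with no annotated segment, 94 of them listed at 0 in every library, and 14 annotated Ighv segments that are not in the composite and were not analysed here.

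An antibody heavy chain gene is assembled in developing B cells by joining a D to a J segment and then a V segment to the DJ join. RAG1 and RAG2 cut at the recombination signal beside each segment, a heptamer and a nonamer held apart by a spacer. The V cluster is so long that its distal segments reach the DJ join only when the locus folds, and their use is known to depend on factors such as Pax5, Yy1, Ikzf1 and Ezh2 and on loop extrusion by cohesin. RNA over a V segment can come from a rearranged gene or from the unrearranged segment, and the files hold coverage rather than junctions, so these sources cannot be told apart here.

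The recombination signals next to the V blocks show how alike the members are. The signals below were read on the strand of the segment from GRCm38 (RefSeq), 5′ to 3′, with the stretches that best match the heptamer CACAGTG and the nonamer ACAAAAACC in capitals. They belong to the member with the highest level in each family, the member with the largest negative log2 fold change, the first and the last member, the last annotated gene, and the near-identical pair that matches the heptamer least among genes with a mean level of at least 1.
Ighv1-26 (chr12:114788334-114788371): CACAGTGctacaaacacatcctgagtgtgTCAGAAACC
Ighv8-8 (chr12:115294023-115294061): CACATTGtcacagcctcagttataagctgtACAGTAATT
Ighv10-1 (chr12:114478966-114479004): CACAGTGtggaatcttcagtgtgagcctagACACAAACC
Ighv1-34 (chr12:114851152-114851189): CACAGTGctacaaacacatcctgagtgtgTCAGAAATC
Ighv1-2 (chr12:114469037-114469074): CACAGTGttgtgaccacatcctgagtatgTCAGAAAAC
Ighv1-86 (chr12:116009621-116009658): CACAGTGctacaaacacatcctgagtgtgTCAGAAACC
Ighv1-85 (chr12:115999990-116000027): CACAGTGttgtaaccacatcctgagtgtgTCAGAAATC
Ighv1-20 (chr12:114723734-114723771): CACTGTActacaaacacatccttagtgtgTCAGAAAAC
Ighv1-37 (chr12:114896200-114896237): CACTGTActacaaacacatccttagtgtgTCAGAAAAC

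The exact heptamer CACAGTG stood beside 68 of the 97 members (70.1%), in 48 of 59 genes and 20 of 38 pseudogenes, and beside 34 of the 56 Ighv segments nearer D. Windows of the same length, 72 bases on 1 strand, held it in 0.770% of 32851 RefSeq promoters. Among the Ighv8 members 4 carried CACATTG and none the exact heptamer, while both Ighv10 members carried it, and TCAGAAACC was the commonest nonamer of Ighv1, in 39 members. The signals of Ighv1-26, the member with the highest level, and of Ighv1-86, a pseudogene with a mean level of 1.78, are the same letters. The median level over the 4 libraries was 41.1 for members with the exact heptamer (n = 68) and 0.298 for the others (n = 29), where a level is the mean coverage per base of a segment brought to the TPM scale of its library. The exact heptamer is commoner in genes, whose median level was 57.7 against 0.792 for pseudogenes. Heptamer and annotation were not separated in this comparison.

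Upstream of V segments lies a promoter octamer that binds the POU factors Oct-1 and Oct-2. ATGCAAAT, or its reverse complement ATTTGCAT, was found in the 300 bases around the annotated start of 79 of 97 members (81.4%) and of 39 of 56 segments nearer D, against 1.74% of RefSeq promoters of that length. It is shown in capitals for the member with the largest negative log2 fold change and for the highest member that has it, both on the strand of the segment.
Ighv1-34 (chr12:114851698-114851757): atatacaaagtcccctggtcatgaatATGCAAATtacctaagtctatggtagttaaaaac
Ighv8-8 (chr12:115294549-115294608): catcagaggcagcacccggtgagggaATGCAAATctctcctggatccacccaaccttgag
A match is a description of these letters only, and Ighv1-26 has no exact match in its window.

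Distal segments were at lower levels when Dido1 exon 16 was deleted, although no single segment passed the test across the transcriptome. Summed over the 97 members, the level reached 6409 and 6037 in WT but 2468 and 3026 in Dido1∆E16, a ratio of means of 0.441. Both Dido1∆E16 libraries lay below both WT libraries, with p = 0.333 in an exact two-sided permutation test, the smallest that 2 against 2 libraries allow. The segments nearer D and J summed to 3904 and 4407 in WT and 2825 and 3412 in Dido1∆E16, a ratio of 0.750. The distal part therefore held 62.1% and 57.8% of the summed Ighv level in WT and 46.6% and 47.0% in Dido1∆E16, 13.2 percentage points less on average, again without overlap between the genotypes (p = 0.333, exact permutation test). Relative to the constant region Ighm, whose level was 14338 and 17306 in WT and 12917 and 13976 in Dido1∆E16, the distal sum was 44.7% and 34.9% in WT and 19.1% and 21.6% in Dido1∆E16. In sorted bulk RNA, fewer cells that use a segment and less RNA of it per cell cannot be told apart.

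**Figure D1:**
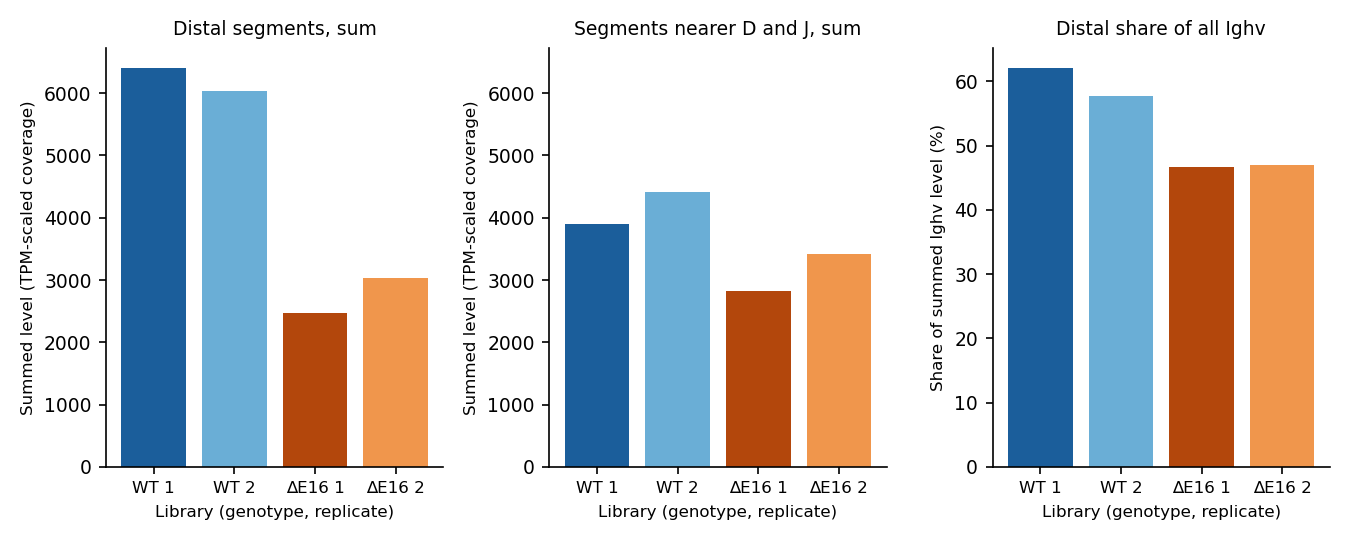
Summed level (TPM-scaled coverage) of the 97 distal Ighv segments (left) and of the 56 segments nearer D and J (middle), and the distal share of the summed Ighv level in percent (right), 1 bar per pre-B library. The distal sum is 6409 and 6037 in WT and 2468 and 3026 in Dido1∆E16, and the distal share is 62.1% and 57.8% against 46.6% and 47.0%.

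Every member was accounted for. Of the 97, 14 were listed at 0 in all 4 libraries, 13 of them pseudogenes, and 9 more had a mean level under 1 and were not fitted, with no library above 2.14. Both Dido1∆E16 libraries were below both WT libraries for 69 of the 97 members and above them for 0, against 16.3% and 23.2% of the 16611 transcripts and segments fitted across the transcriptome. The 28 others were the 14 at 0 and 14 whose genotypes overlapped. The number of members above a level of 100 was 25 and 24 in WT but 4 and 8 in Dido1∆E16, while 75 and 74 members were above 1 in WT and 65 and 70 in Dido1∆E16. Most members that were above 1 in WT were thus still above 1 in Dido1∆E16, at lower levels.

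**Figure D2:**
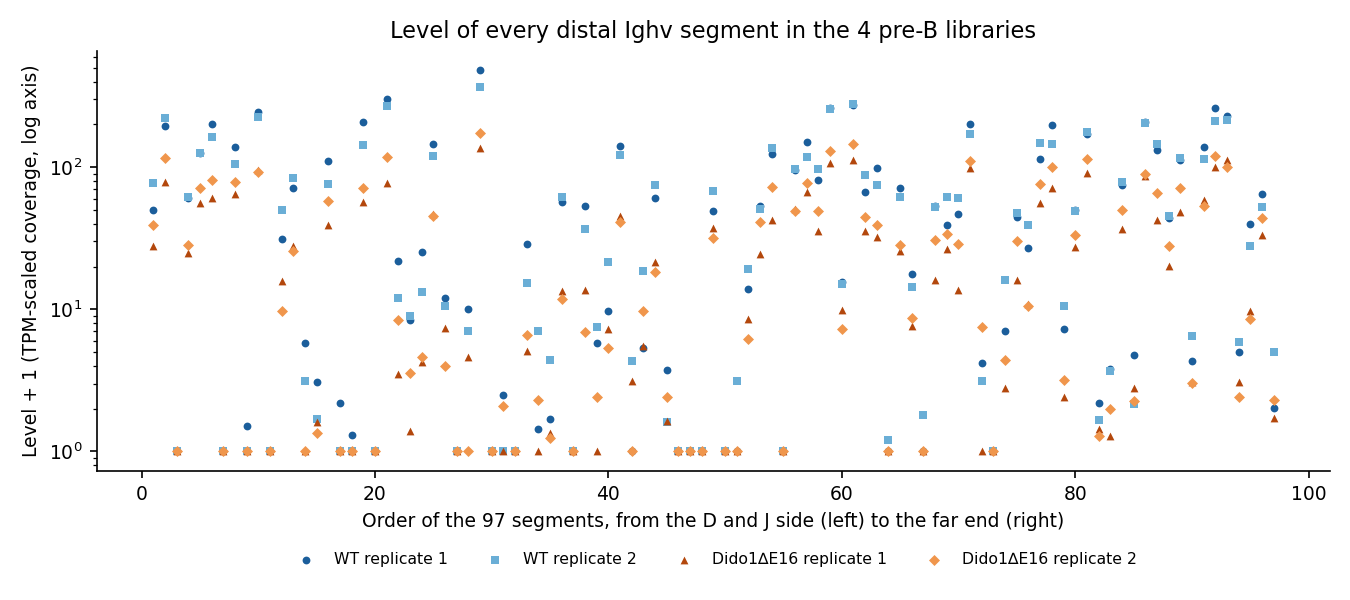
Level + 1 (TPM-scaled coverage, log axis) of each of the 97 distal segments in order from the D and J side, 1 symbol per pre-B library. In all 55 segments with a mean level of at least 10 the orange Dido1∆E16 symbols lie below the blue WT symbols, and 14 segments are listed at 0 in all libraries and sit on the lower edge.

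In the fit across all 16611 features (limma on log2(level + 1)), 74 members had a mean of at least 1. Their log2 fold changes, Dido1∆E16 over WT, were all below 0, from -2.23 to -0.24 with a median of -1.11, where the median of all features was 0.05 and 45.1% were below 0. A fold change of -0.6 or lower was seen in 69 members (14.1% of all features) and of -1 or lower in 45 (8.77%). An unadjusted p under 0.05 was reached by 53 members in the downward direction (3.53% of all features) and by 0 upward (6.18%). No member passed the call, which asks for an adjusted p under 0.05 and a log2 fold change of at least 0.6 in size: 0 of 74 members were called, against 0.0602% of all features called lower and 0.0963% called higher. The lowest Benjamini-Hochberg adjusted p of a member was 0.102, and 12 members were under 0.2. With no filter on low values 43 members were called, in a fit where 63.6% of the 64042 features did not vary within either genotype. When the Ighv segments were scaled to the same total in each library, the median of the members was -0.37 in place of -1.11, with 11 members above 0. Of the 74, 7 overlapped between genotypes: Ighv1-32, Ighv1-40, Ighv1-41, Ighv1-43, Ighv8-10, Ighv8-14 and Ighv1-86. Members share libraries, locus and in part reads and are not replicates of each other, so these counts describe the segments and are not a test over them.

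Among the members with the highest levels, the differences were of similar size. Ighv1-26, an Ighv1 gene 1360 kb from Ighj4, had a level of 483 and 364 in WT and 135 and 173 in Dido1∆E16, with a log2 fold change of -1.46 ± 0.22 (SE, adjusted p = 0.255, limma). Ighv8-8, the highest Ighv8 gene, had 274 and 275 in WT and 110 and 145 in Dido1∆E16 (log2 fold change -1.11). Ighv1-19 had 300.0 and 268 in WT and 76.1 and 116 in Dido1∆E16 (log2 fold change -1.58). In each of these genes the genotypes did not overlap, and the Dido1∆E16 replicate 1 library was the lowest. Ighv1-55 had 262 and 256 in WT and 106 and 129 in Dido1∆E16 (log2 fold change -1.14). Ighv1-81 had 259 and 211 in WT and 99.8 and 118 in Dido1∆E16 (log2 fold change -1.10). These genes lie 1780 and 2492 kb from Ighj4, and their ratios of means, 0.455 and 0.464, were nearly the same.

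Some members were very even between replicates. Ighv1-9 had 245 and 223 in WT and 94.1 and 92.0 in Dido1∆E16, with a log2 fold change of -1.32 ± 0.11 (SE, adjusted p = 0.104, limma). Ighv1-75 had 206 and 202 in WT and 85.4 and 88.8 in Dido1∆E16, with a log2 fold change of -1.22 ± 0.10 (SE, adjusted p = 0.104, limma). Ighv1-82 had 227 and 214 in WT and 111 and 99.6 in Dido1∆E16 (log2 fold change -1.06). For these genes the difference between genotypes was several times that between replicates. Ighv10-1, from the family at the D side of the window, had 192 and 219 in WT and 77.7 and 115 in Dido1∆E16 (log2 fold change -1.11). Ighv1-64 had 200.1 and 170 in WT and 96.9 and 110 in Dido1∆E16, the smallest difference of the 10 highest members (log2 fold change -0.83). Together these 10 members made up 41.3% and 39.8% of the distal sum in WT and 40.2% and 39.2% in Dido1∆E16, and this weight overlapped between genotypes (p = 0.667, exact permutation test).

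The largest negative log2 fold changes were found in segments of middle or low level. Ighv1-34 had 55.5 and 60.7 in WT and 12.5 and 10.8 in Dido1∆E16, with a log2 fold change of -2.23 ± 0.18 (SE, adjusted p = 0.102, limma). Ighv1-36 had 52.0 and 35.9 in WT and 12.6 and 5.91 in Dido1∆E16 (log2 fold change -2.19). Ighv1-37 had 4.77 and 6.54 in WT and was listed at 0 and at 1.41 in Dido1∆E16 (log2 fold change -2.09), and its V block is 98.7% identical to that of Ighv1-20, with which it may share reads. These 3 genes lie close together, 1423 to 1468 kb from Ighj4. The other 3 of the 6 largest rest on short blocks. The pseudogene Ighv1-13, read over 14 bases, had 4.83 and 2.14 in WT and was listed at 0 in both Dido1∆E16 libraries. Ighv1-21, a pseudogene read over 32 bases, had 24.3 and 12.2 in WT and 3.22 and 3.58 in Dido1∆E16 (log2 fold change -2.05). Ighv1-25, a pseudogene read over 67 bases, had 9.05 and 6.07 in WT and 3.65 and 0 in Dido1∆E16 (log2 fold change -1.97). No member was higher in both Dido1∆E16 libraries, and the highest ratio of means, 1.21, belonged to Ighv8-10, a pseudogene read over 20 bases that was named for this ratio: it had 3.22 and 2.14 in WT and 0 and 6.49 in Dido1∆E16, so its genotypes overlapped.

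**Figure D3:**
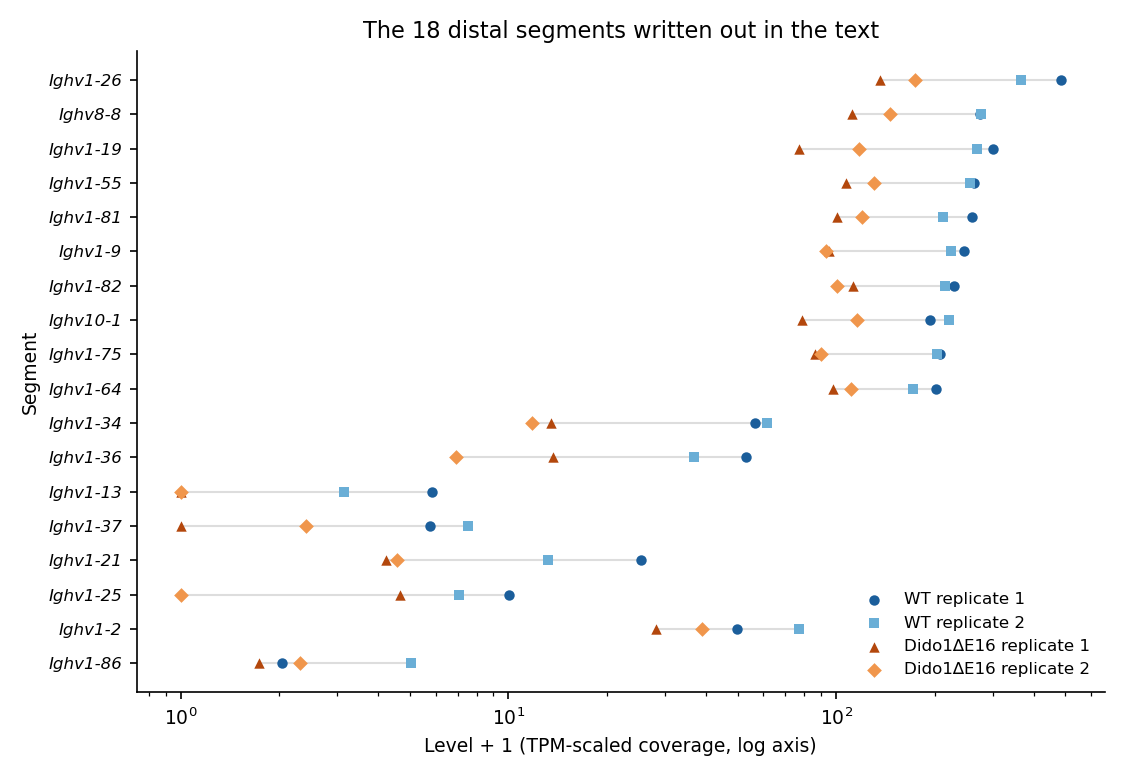
Level + 1 (TPM-scaled coverage, log axis) of 18 members in the 4 pre-B libraries: the 10 with the highest mean, the 6 with the largest negative log2 fold change, and the first and last by position. In 17 of them both Dido1∆E16 symbols lie left of both WT symbols, and in Ighv1-86 they overlap.

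Members differed from each other in the size of the difference. For the 55 members with a mean level of at least 10, the log2 ratio of Dido1∆E16 to WT means had a median of -1.14 and an SD of 0.42 across members, from -2.34 to -0.62. The ratio of the WT libraries to each other had a median of -0.03 and an SD of 0.39 across the same members, and that of the Dido1∆E16 libraries 0.30 and 0.45. The median between genotypes was thus several times that between replicates. The SD of 0.42 is for a ratio of means and cannot be set directly against the SDs between single libraries. For single libraries, the SD across members was 0.53 and 0.39 for Dido1∆E16 replicate 1 over WT replicates 1 and 2. For Dido1∆E16 replicate 2 it was 0.60 and 0.53 in the same order. All 55 members were lower in each of the 4 pairings of a Dido1∆E16 with a WT library. Over the 74 fitted members the order of levels was much the same in all libraries: Spearman's rho was 0.972 between the WT libraries, 0.968 between the Dido1∆E16 libraries and 0.954 to 0.970 between genotypes, values given as a description since the members share each library.

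**Figure D4:**
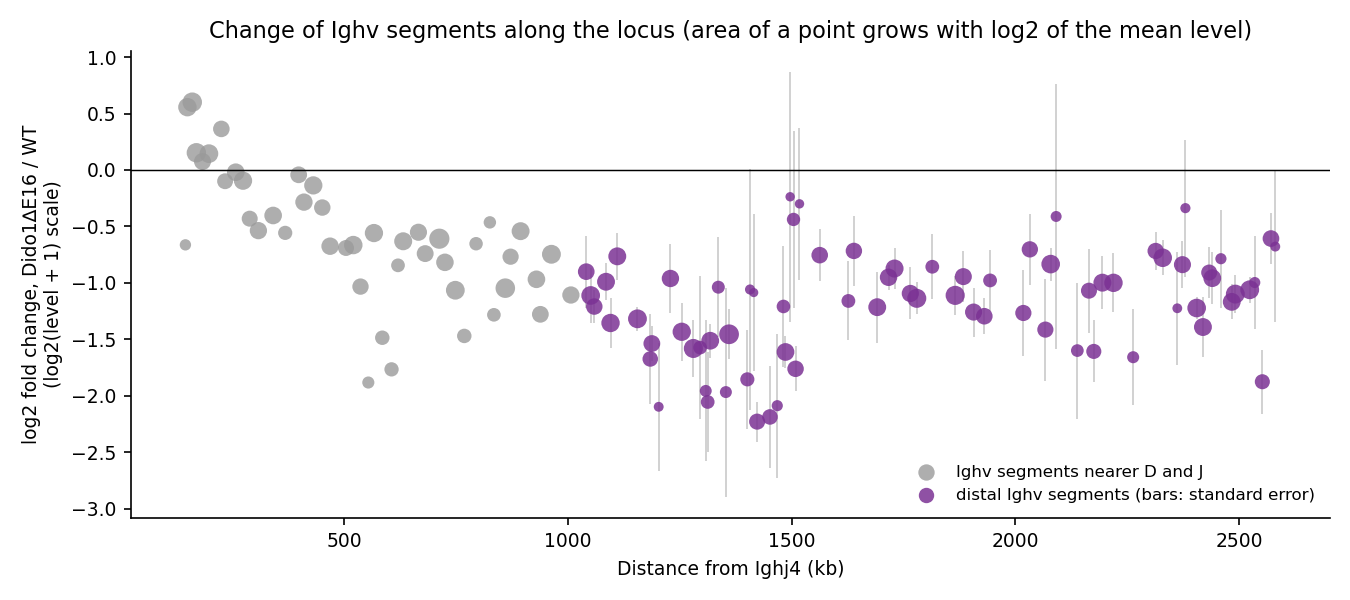
Log2 fold change, Dido1∆E16 over WT, of fitted Ighv segments against distance from Ighj4 (kb), distal members in purple with standard errors and the segments nearer D and J in grey, with point areas growing with log2 of the mean level. Grey points run from above 0 near D down to -1.88, and purple points reach their lowest values, down to -2.23, near 1423 kb and farther on lie mostly around -1.

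The difference varied with position. Among segments nearer D the ratio of class sums was 1.02 for the 28 nearest D and 0.570 for the next 28. When the 97 distal members were ranked by position and cut into 4 classes, the ratio was 0.409 in the class nearest D, 0.345 in the second, 0.484 in the next and 0.480 in the class farthest from D. The median log2 fold changes of the fitted members were -1.43, -1.33, -1.04 and -0.999 in the same order. By both measures the difference was larger on the D side of the distal part, between 1041 and 1563 kb from Ighj4, than at the far end.

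The 48 members nearest D summed to 2792 and 2482 in WT and 918 and 1109 in Dido1∆E16, a ratio of 0.384. The 49 far members summed to 3617 and 3554 in WT and 1550 and 1916 in Dido1∆E16, a ratio of 0.483. The far members accordingly held 56.4% and 58.9% of the distal sum in WT and 62.8% and 63.3% in Dido1∆E16, with no overlap (p = 0.333, exact permutation test). The same direction was seen in the median log2 level of the fitted members, where far exceeded near by 0.20 and 0.15 in WT and by 1.02 and 1.77 in Dido1∆E16 (p = 0.333, exact permutation test). In 4 windows of equal length in place of equal number this contrast was smaller, 0.31 instead of 1.22 log2 units. Taken per member, the median log2 fold change of the fitted members was -1.44 for near and -0.999 for far. The 1.22 is thus a contrast of group medians, larger than that between typical members.

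The segments at the ends are given for their position and do not stand for their neighbours, among which Ighv1-84, next to the last gene, had a log2 fold change of -1.88. The first member, the pseudogene Ighv1-2 at chr12:114469074-114469394, had 48.7 and 75.8 in WT and 27.1 and 37.98 in Dido1∆E16 (log2 fold change -0.90), with no overlap. The last annotated gene, Ighv1-85, chosen after its values were seen, had 63.9 and 51.6 in WT and 32.3 and 43.2 in Dido1∆E16 (log2 fold change -0.61), also without overlap. The last member, the pseudogene Ighv1-86 at chr12:116009659-116009879, was low throughout, with 1.03 and 4.04 in WT and 0.732 and 1.31 in Dido1∆E16, and its genotypes overlapped.

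On the log2(level + 1) scale, the median log2 fold change was much the same at each level in WT. The fitted members were cut into 3 classes by mean WT level. Those in the lowest class (1.67 to 21.0, 25 members) had a median log2 fold change of -1.09, those in the middle class (32.2 to 92.9, 24 members) -1.15 and those in the highest class (95.7 to 424, 25 members) -1.11. The ratios of class sums were 0.352, 0.448 and 0.444, and the median ratios of means per member were 0.364, 0.447 and 0.464. The spread narrowed with level, from an SD of 0.61 in the lowest to 0.47 and 0.25 in the higher classes. The genotypes were apart in 18 of 25 members of the lowest class and in every member of the others. Since the WT values enter both the class and the change, classes were also made from 1 WT library with the change taken against the other. Classes by WT replicate 1 gave medians of -1.34, -1.20 and -1.12 from low to high, and classes by WT replicate 2 gave -0.92, -1.21 and -1.15. The ratios of class sums were 0.328, 0.434 and 0.469 by WT replicate 1 and 0.362, 0.461 and 0.422 by WT replicate 2. The order of the median log2 fold changes turned with the library used, while the ratio of sums was lowest in the low class with either library. No dependence on the level in WT was therefore resolved by the median log2 fold changes, which are on a scale that understates differences at low levels.

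Each family and both annotation classes were lower in Dido1∆E16. The 87 Ighv1 members summed to 5480 and 5168 in WT and 2122 and 2535 in Dido1∆E16 (ratio 0.437). The 8 Ighv8 members summed to 536 and 488 in WT and 209 and 295 in Dido1∆E16 (ratio 0.492). The 2 Ighv10 members summed to 393 and 380 in WT and 138 and 196 in Dido1∆E16 (ratio 0.431). No family overlapped between genotypes. The median log2 level of Ighv8 less that of Ighv1 was -1.47 and -1.10 in WT and -1.61 and -0.76 in Dido1∆E16, with overlap and a mean difference of 0.10 (p = 1, exact permutation test). Within Ighv8 the genes Ighv8-5, Ighv8-8, Ighv8-11, Ighv8-12 and Ighv8-13 were lower without overlap, while the pseudogenes Ighv8-10 and Ighv8-14 overlapped and Ighv8-3 was listed at 0.

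Annotated genes carried nearly all of the level. Their sum was 6254 and 5835 in WT and 2405 and 2942 in Dido1∆E16 (ratio 0.442) and 56 of 59 were lower without overlap, the exceptions being Ighv1-24, Ighv1-43 and Ighv1-62-1. Pseudogenes summed to 155 and 202 in WT and 63.4 and 83.6 in Dido1∆E16 (ratio 0.412), and 13 of 38 were lower without overlap. The median log2 level of genes exceeded that of pseudogenes by 3.91 and 3.59 in WT and by 3.61 and 4.04 in Dido1∆E16 (p = 0.667, exact permutation test). Pseudogenes made up 2.42% and 3.34% of the distal sum in WT and 2.57% and 2.76% in Dido1∆E16, so this share overlapped between genotypes. The ratio of sums was 0.438 for members with the exact heptamer and 0.475 for the others, and the median log2 level of the former less that of the latter overlapped between genotypes (p = 0.667, exact permutation test).

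In 12 members the V block is at least 98% identical to that of another segment, such as Ighv1-62-2 and Ighv1-71 at 100%, and their levels may be exchanged between partners by the alignment. Their sum was 671 and 660 in WT and 292 and 381 in Dido1∆E16 (ratio 0.506), all 12 were lower without overlap, and the sum of the 85 other members had a ratio of 0.434.

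A block taken as the leader exon was read on its own in 24 members. This exon codes for most of the signal peptide and lies upstream of the V exon across a short intron. The block was picked by length and position alone, beside a V block of at least 250 bases. It is the farthest upstream one of 30 to 110 bases, and was 31 to 107 bases long in these members. Leader blocks summed to 1907 and 1823 in WT and 712 and 950.2 in Dido1∆E16 (ratio 0.446), and the V blocks of the same members to 3045 and 2846 in WT and 1181 and 1438 in Dido1∆E16 (ratio 0.445). Leader blocks were lower without overlap in 19 of 24 members and V blocks in 24 of 24. The median log2 ratio of leader to V block was -0.83 and -0.81 in WT and -0.60 and -0.75 in Dido1∆E16 (p = 0.333, exact permutation test). With the 22 members in which both blocks had a mean of at least 1, it was -0.75 and -0.81 in WT and -0.70 and -0.88 in Dido1∆E16, with overlap. The sums of both exons thus had nearly the same ratio between genotypes. Leader blocks are part of the segment level and come from the same libraries, so they are not an independent measure.

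The libraries were checked against their labels, and some other RNAs differed along with the distal segments. Aligned sequence came to between 1121 and 1635 megabases per library. Coverage of Dido1 exon 16 was 24.6 and 21.8 in WT and 0.295 and 0.0843 in Dido1∆E16. The pre-B list (11 genes, all in the files) summed to 15632 and 17927 TPM in WT against 19321 and 18780 in Dido1∆E16. Without overlap, 2 of its genes were lower and 4 higher, where 16.5% and 26.8% of all genes were. Within this list, the surrogate light chain genes were higher in Dido1∆E16. Vpreb1 was at 108 and 40.9 in WT against 1222 and 738 TPM, and Igll1 at 112 and 34.4 against 424 and 252 TPM. At the other end of the heavy chain locus the summed level of D segments was 117 and 140 in WT and 606 and 547 in Dido1∆E16, and that of Ighg2b 14.1 and 10.2 against 336 and 265. The J segments differed among themselves: Ighj1 was at 261 and 235 in WT against 792 and 739 in Dido1∆E16, and Ighj2 overlapped at 268 and 268 against 275 and 263. Ighj3, at 424 and 435 against 308 and 293, and Ighj4, at 535 and 587 against 451 and 420, were lower without overlap. Ighd was at 546 and 438 TPM in WT against 223 and 155 in Dido1∆E16. The part of these RNAs in the lower level of the distal segments was not tested.

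Markers of other cell types were found in these sorted cells. The neutrophil and monocyte list (6 of 6 genes in the files) summed to 194 and 1541 TPM in WT against 775 and 6406 in Dido1∆E16, and the erythroid list (5 of 5) to 247 and 755 in WT and 537 and 6851 in Dido1∆E16, so replicate 2 was the higher of each genotype. Without overlap, 0 genes of these lists were lower and 1 was higher. Over all genes the shares were 16.5% lower and 26.8% higher, to be set beside each list here. Without Dido1∆E16 replicate 2, which had the most RNA of these lists, the median log2 fold change of the members was -1.26. The T and NK list summed to between 4.55 and 25.99 TPM, with Cd3e, Cd8a and Cd4 at 0 in all libraries. The mature B list (8 of 8) summed to 4703 to 4948 TPM in WT and 5360 to 6219 in Dido1∆E16, yet 4 of its genes were lower and 2 higher without overlap, with a median log2 fold change of -0.21. Most of that sum is Cd74, the invariant chain, at 2687 and 2665 TPM in WT against 3724 and 4389 in Dido1∆E16. The plasma and switched list (6 of 6) summed to 742 to 918 TPM in WT and 906 to 1068 in Dido1∆E16, with 2 genes lower and 1 higher without overlap and a median log2 fold change of -0.42, and the higher gene was Ighg2b.

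Kappa light chain V segments, which recombine later than the heavy chain, are given beside these. Of 100 Igkv segments fitted, 58 were lower and 3 higher without overlap, with a median log2 fold change of -0.43, and of the 44 fitted Ighv segments nearer D, 28 were lower and 2 higher, with a median of -0.62. The same counts for the distal members were 67 and 0 of 74, with a median of -1.11. Of all features fitted, 16.3% were lower and 23.2% higher without overlap.

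Factors that act on distal Ighv recombination did not pass the call. Of 20 such genes, all fitted as gene sums, 0 were called (0.0251% of 11952 genes were called lower and 0.0335% higher), and their median log2 fold change was 0.02, with 0.06 for all genes. Genotypes were apart downward in 4, Pax5, Ikzf1, Ebf1 and Foxo1 (16.5% of all genes), and upward in 4, Wapl, Tcf3, Stat5a and Stat5b (26.8%). Pax5, Ikzf1, Yy1, Ezh2 and Rag1 are given for their known roles and were picked after their values were seen. Pax5, the B lineage factor required for contraction of the locus, was at 805 and 835 TPM in WT against 800.1 and 786 in Dido1∆E16. Ikzf1, which encodes Ikaros, was at 627 and 584 in WT and 515 and 579.97 in Dido1∆E16, and like Pax5 it was lower without overlap. Yy1, which binds across the locus, was at 147 and 122 in WT and 131 and 137 in Dido1∆E16. The polycomb methyltransferase Ezh2 was at 482 and 206 in WT and 353 and 290 in Dido1∆E16, and its genotypes overlapped as those of Yy1 did. Rag1 was at 831 and 696 in WT and 754 and 779 in Dido1∆E16, also with overlap. The 1 gene with an unadjusted p under 0.05, in the upward direction where 8.53% of all genes were (0 factors and 3.85% of all genes in the downward direction), was Stat5a, a transducer of the IL-7 receptor signal, at 32.2 and 31.8 in WT and 52.7 and 55.3 in Dido1∆E16 (log2 fold change 0.74 ± 0.14, SE, adjusted p = 0.203, limma).

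Accessible chromatin over the same window was read in another cell type, LSK cells, the lineage-negative Sca-1+ c-Kit+ fraction that holds haematopoietic stem cells and progenitors. ATAC-seq gave 2 WT and 2 Dido1∆E16 libraries, and MACS2 called 33 and 84 peaks in the window in WT and 2 and 10 in Dido1∆E16. The libraries had very different numbers of peaks in all, 27352 and 57739 in WT and 13208 and 16329 in Dido1∆E16. Per 1000 peaks of the library, the window held 1.21 and 1.45 in WT and 0.151 and 0.612 in Dido1∆E16, with no overlap (p = 0.333, exact permutation test). Among the 13208 best-scoring peaks of each library, 9 and 11 lay in the window in WT and 2 and 8 in Dido1∆E16. HOMER called 11 and 49 peaks in WT and 3 and 4 in Dido1∆E16, or 0.445 and 0.717 per 1000 against 0.195 and 0.168. By each count both Dido1∆E16 libraries were below both WT libraries, and a lower number of peaks in the whole library cannot be told apart from the genotype.

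**Figure D5:**
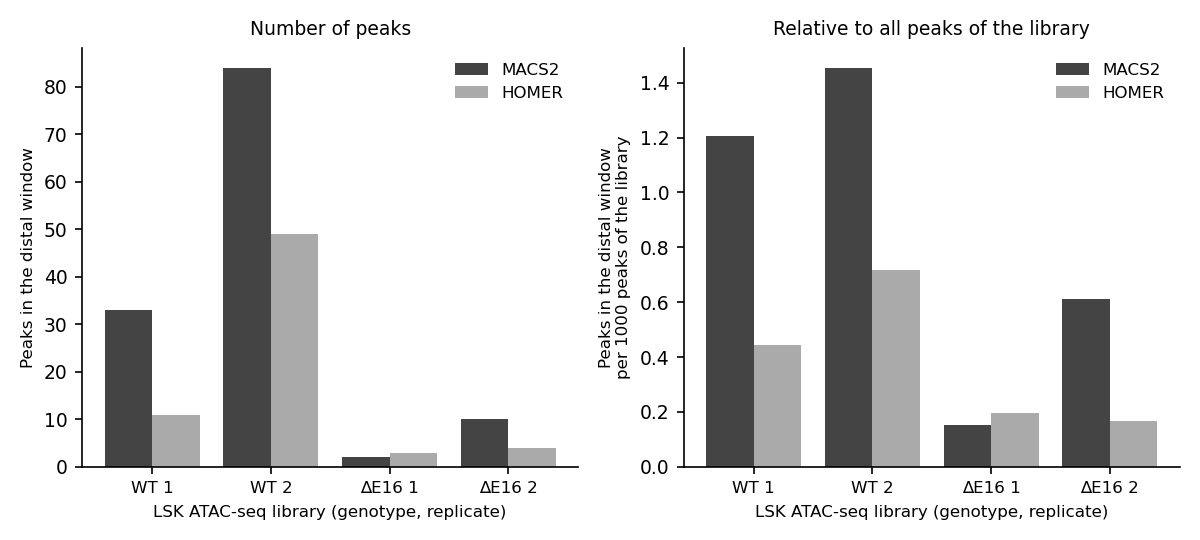
ATAC-seq peaks of LSK cells inside the distal window by library, as a number (left) and per 1000 peaks of the library (right), for MACS2 (dark) and HOMER (light). MACS2 gives 33 and 84 peaks in WT and 2 and 10 in Dido1∆E16, and 1.21 and 1.45 against 0.151 and 0.612 per 1000.

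Many of these peaks overlapped a segment. The 97 members span 1.97% of the window. That span leaves out the width of the peaks, so it understates how often a peak could touch a member. Of the MACS2 peaks, 24 of 33 in WT replicate 1, 46 of 84 in WT replicate 2, 2 of 2 in Dido1∆E16 replicate 1 and 7 of 10 in Dido1∆E16 replicate 2 overlapped a member by at least 1 bp. The recombination signal was overlapped by 25, 47, 2 and 7 of them. Of the HOMER peaks, 5 of 11, 20 of 49, 1 of 3 and 3 of 4 overlapped a member in the same order. All 24 members with a peak in WT replicate 1 also had one in WT replicate 2, and 46 members had one in any library. Those 46 had a median RNA level of 47.6 in pre-B cells, and the 51 others 2.96, but 82.6% of the former and 41.2% of the latter are annotated genes, which have higher levels than pseudogenes. The ratio of RNA sums was 0.472 in members with a peak and 0.386 in those without. Ighv1-58, singled out after its values were seen, was the 1 member with a MACS2 peak in all 4 libraries, and the stretch common to the 4 peaks is given on the strand of the gene, with the heptamer and the nonamer of its recombination signal in capitals.
Ighv1-58 (chr12:115312127-115312314): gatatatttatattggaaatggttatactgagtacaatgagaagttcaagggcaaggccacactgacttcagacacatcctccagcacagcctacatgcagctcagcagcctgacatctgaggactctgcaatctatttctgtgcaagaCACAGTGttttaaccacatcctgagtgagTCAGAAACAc
It covers the end of the V exon and the signal. In pre-B RNA, Ighv1-58 had 65.6 and 87.2 in WT and 34.5 and 43.6 in Dido1∆E16 (log2 fold change -0.94), without overlap.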

How the data were processed

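The authors aligned pre-B reads to mm10 with BWA-MEM 0.7.15, which does not split reads at introns, removed duplicates and ran StringTie on UCSC known genes, and the deposited transcript files hold TPM per transcript and coverage per block as signal. Within a library TPM is a fixed multiple of coverage, so block coverage was averaged per base over each segment and brought to the TPM scale. For LSK cells the authors called ATAC-seq peaks per sample with MACS2 and HOMER. The deposited peak score was used only to rank MACS2 peaks, and the HOMER score is 1 throughout. Tables of the authors' own comparisons (edgeR, differential peaks) were not used in the calculations.

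Blocks of the composite Igh transcript closer than 500 bp were joined and matched to annotated Ighv segments. Transcripts and segments with a mean of at least 1 were fitted together with limma 3.58.1 (R 4.3.3) on log2(level + 1), a scale that understates differences at low levels, with a trended variance. Features were called at a Benjamini-Hochberg adjusted p under 0.05 together with a log2 fold change of 0.6 or more in either direction. The fit was tested on simulated data. Single values were compared by exact two-sided permutation tests, whose smallest p with 2 against 2 libraries is 0.333. Peaks were intersected with bedtools 2.31.1 (at least 1 bp). Groups came from the labels, which do not tie libraries to animals, so p-values measure the spread between these libraries. Members named are the 10 highest by mean, up to 6 with the largest log2 fold change in each direction without overlap, called members, the first and the last, and factors with an unadjusted p under 0.05. The members and lists were chosen with earlier results of these data known. Alternatives were other pseudocounts, filters, centrings and scalings, other block and position choices, near-identical segments left out, a replicate block and each library left out.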

Additional observations from a re-analysis of the deposited data

How the results depend on the processing

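Of 64 alternative values, 61 were counted as unchanged, by direction and side of the threshold or by set limits. Some of these 61 still differed in sign or size. The highest less the lowest class by WT level was -0.026, but 0.22 by WT replicate 1 and -0.24 by WT replicate 2. The position contrast went from 1.22 to 0.31 in windows of equal length. With no filter on low values 43 members were called in place of 0, in a fit where 63.6% of features had no spread within genotypes and limma warned that its variance estimate was unreliable. Scaling to the summed Ighv level moved the median log2 fold change from -1.11 to -0.37. Using only members whose leader and V blocks both had a mean of at least 1 turned the leader against V difference from 0.14 to -0.0074, and the cause was not tested. Leaving out 1 library at a time gave medians of -1.26 to -0.99 and 0 called members. Across all features, calls changed from 10 lower and 16 higher to 18 and 460 without Dido1∆E16 replicate 1, to 8 and 523 without Dido1∆E16 replicate 2, and to 0 and 0 without either WT library, where the lone library is assumed to vary like the other genotype. Without a variance trend they were 44 and 54, and with a pseudocount of 0.1 they were 1 and 3. Centring libraries on their median moved the share of all features below 0 from 45.1% to 55.5%. The fit with the replicate number as a block called 0 members and 0 features in all, with a median of -1.11 and 49 members at an unadjusted p under 0.05. Same-numbered libraries deviated together with r = 0.071 over 16611 features, so the numbers were not shown to pair the libraries. With 2 libraries a genotype no exact test can pass 0.05, short blocks and near-identical segments limit single members, and the depth of the ATAC-seq libraries is unknown, so its part in the peak numbers was not tested.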
